A study of Mus musculus with 12 samples.

Results

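The clustered protocadherins are 58 genes lying head to tail in 3 neighbouring clusters on mouse chromosome 18, and their expression was followed here in a mouse embryonic fibroblast (MEF) line and 3 clonal lines derived from it. Members were every gene of the count matrix whose symbol was that of an alpha, beta or gamma protocadherin isoform, which gave 14 alpha, 22 beta and 22 gamma genes of 24453 genes in all. In the GRCm38 coordinates of the deposited transcript tables, the alpha genes span 18:36930285-37187660, the beta genes 18:37264998-37521419 and the gamma genes 18:37661945-37841872, all on the plus strand. The gamma cluster consists of 12 gamma A genes, 7 gamma B genes and the 3 C-type genes Pcdhgc3, Pcdhgc4 and Pcdhgc5. The alpha cluster has 12 numbered genes and the C-type genes Pcdhac1 and Pcdhac2.

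TM6 is a MEF line of strain C57BL6/J, immortalized with SV40 large T antigen, which carries the Pnpt1 neo-flox/neo-flox genotype and received no treatment. The rho0 line was made from TM6 by culture in 750 ng/mL ditercalinium dichloride dihydrochloride for 3 weeks, which depletes mitochondrial DNA (mtDNA), with a colony grown from 1 cell picked afterwards. The clones PKO-1 and PKO-6 likewise grew from single TM6 cells given Adenoviral-Cre, which excises a loxP-flanked part of Pnpt1, the gene of the mitochondrial exoribonuclease PNPase. The authors reported that the PKO clones had lost their mtDNA too, with no signal by quantitative PCR, like rho0. All 12 cultures, 3 biological replicates of each line, grew in medium with 50 µg/mL uridine, and the age of the embryos was not given in the sources used here. Each derived line is 1 clone, so an effect of ditercalinium or Cre and a difference between clones cannot be told apart within a line, and TM6 itself was not stated to be clonal.

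Clustered protocadherins are cadherin-like adhesion molecules of the cell surface that bind the same isoform on a neighbouring cell, and they are best known from neurons. A single neuron switches on a small subset of the alpha, beta and gamma promoters, largely at random, and the resulting combination lets its branches recognize one another as self. In alpha and gamma genes a variable exon with its own promoter, encoding the extracellular and transmembrane parts, is spliced to constant exons shared by the whole cluster, whereas each beta gene is a single exon. The C-type isoforms are regulated apart from the others and are expressed more evenly from cell to cell. Promoter choice depends on DNA methylation, the zinc finger protein CTCF and the cohesin complex, and a choice once made can be passed on through cell division.

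That gene structure sets what a gene level read count can show. In the deposited annotation the shared exons made up 52.7 to 54.9% of the length of an alpha transcript and 41.7 to 47.2% of a gamma transcript, and 0% of a beta transcript. Reads from the shared exons were split between the isoforms by the authors' quantification, and 97.0% of the gamma values above 0 carried decimals, against 1.96% of the beta values. A single alpha or gamma isoform is therefore an estimate and uncertain, which holds most for weak isoforms beside a strong one, while the sum over a cluster does not depend on the split. In these bulk libraries, fewer cells expressing an isoform and less RNA per expressing cell cannot be told apart.

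The libraries held 47164860 to 67991378 estimated counts each, of which the 58 genes took 271.5 to 396.3 CPM (counts scaled to a common library size). Levels are given as normalized counts, that is, counts divided by the TMM-scaled library size relative to the mean over the 12 libraries. Pnpt1 itself measured 2832, 3242 and 3319 normalized counts in TM6, 5051, 5251 and 5510 in rho0, 1254, 1191 and 1276 in PKO-1 and 1897, 1720 and 2214 in PKO-6. It was below TM6 in all 6 PKO libraries, although a whole-gene count does not see the excised part alone. Of 11 fibroblast markers 8 to 10 were on in each line, but Thy1 was off in rho0, PKO-1 and PKO-6 and low in TM6. The neuronal markers Rbfox3, Snap25, Nefl and Nefm, the glial markers Gfap and Olig2 and the leukocyte markers Ptprc and Aif1 were off in all 4 lines. Between replicates, rho0 replicate 1 and PKO-6 replicate 3 stood apart from the other 2 cultures of their line, and no pair of libraries was close enough to be a duplicate.

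A gene was counted as on in a line when it reached 0.5 TMM-scaled CPM, or 28.2 normalized counts, in all 3 libraries, as off when no library had more than 3 counts, and as low otherwise. By this rule 25 of the 58 genes were on in TM6, 25 in rho0, 25 in PKO-1 and 26 in PKO-6, beside 49.0, 49.2, 48.1 and 49.7% of all genes. The same 21 genes were on in every line, as were 46.0% of all genes, and 7 more were on in some lines and not in others, a pattern that 6.36% of all genes showed. A further 30 genes were on in no line, 16 of them off in every line. None of the 58 was on in 1 line and off in another at this threshold. At 0.2 CPM, or 11.3 normalized counts, 2 genes were, namely Pcdhb14, on in PKO-1 and off in PKO-6, and Pcdhb16, on in TM6 and PKO-6 and off in rho0. The map of all 58 genes in chromosome order shows an almost silent alpha cluster and a beta cluster used mainly at its downstream end. The gamma cluster has estimated counts along its whole length, which for weak isoforms depend in part on the split of shared-exon reads.

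**Figure D1:**
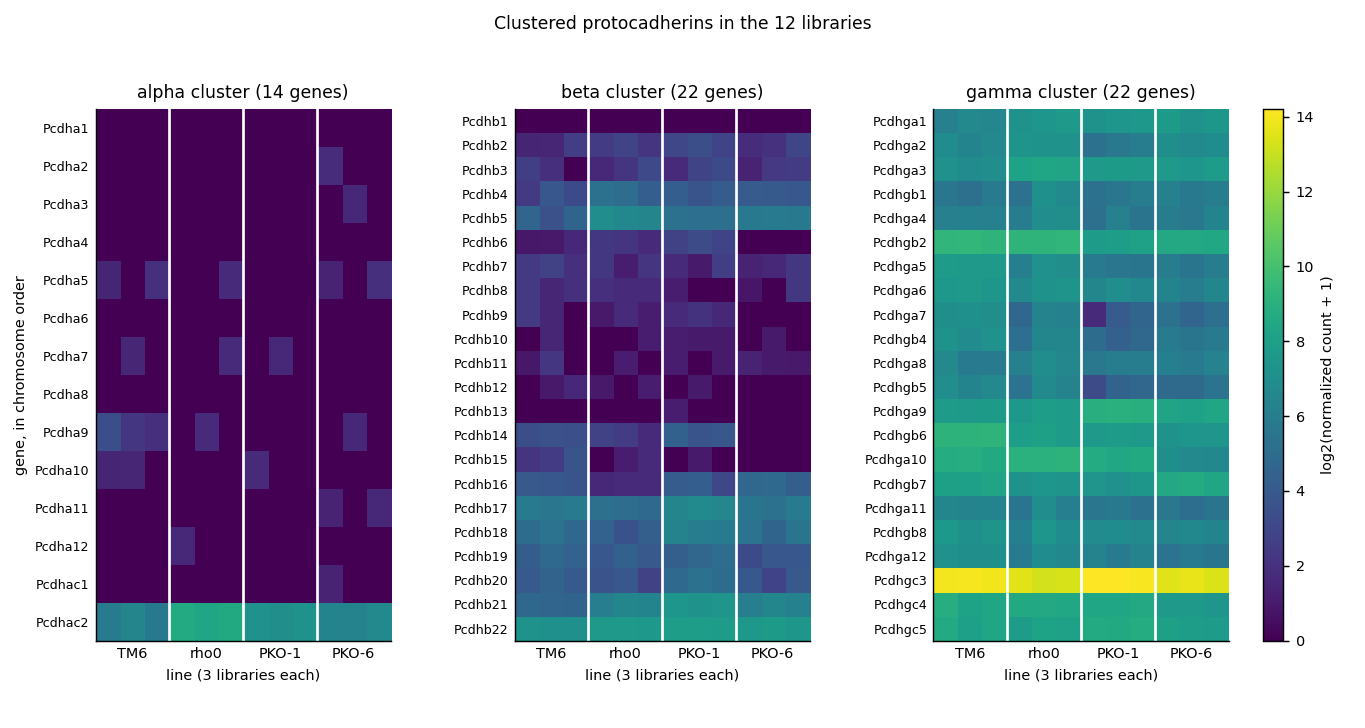
Heat map of log2(normalized count + 1) for the 14 alpha, 22 beta and 22 gamma genes (rows, in chromosome order) in the 3 libraries of each line (columns, separated by white lines). Pcdhac2 is the only alpha row above the background in all libraries, the lower beta rows Pcdhb16 to Pcdhb22 carry most beta signal, and Pcdhgc3 is the brightest row in every library.

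In the alpha cluster, only Pcdhac2 was on, and it was on in all 4 lines. Its normalized counts were 59.7, 86.9 and 51.9 in TM6, 413, 325 and 386 in rho0, 143, 129 and 150 in PKO-1, and 85.2, 81.9 and 104 in PKO-6. Every rho0 library exceeded every other library, all PKO-1 libraries lay above those of TM6 and PKO-6, and TM6 and PKO-6 overlapped. By edgeR's quasi-likelihood test with Benjamini-Hochberg adjustment over 14026 genes, which gave every adjusted p-value reported here, Pcdhac2 was higher than in TM6 by 2.50 ± 0.17 (log2 fold change ± SE, adjusted p = 1.96e-08) in rho0 and by 1.09 ± 0.18 (adjusted p = 0.00012) in PKO-1. In PKO-6 the difference of 0.45 ± 0.18 was not called (adjusted p = 0.0432). A gene was called when its adjusted p was below 0.01 and its log2 fold change exceeded 0.5 in size.

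The other 13 alpha genes summed to 8.87 ± 3.65 normalized counts in TM6, 2.87 ± 1.39 in rho0, 1.50 ± 1.31 and 5.45 ± 1.70 in PKO-1 and PKO-6 (SD, n = 3). Of these, 12 were off in all 4 lines and Pcdha9 was low in TM6, with 9.51, 3.82 and 2.99 normalized counts. Pcdhac2 accordingly held 87.9 ± 5.12% of the alpha counts in TM6 and 99.2 ± 0.346% in rho0. The cluster as a whole reached 75.0 ± 18.5, 377 ± 45.4, 142 ± 9.87 and 95.7 ± 11.6 normalized counts in TM6, rho0, PKO-1 and PKO-6.

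In the beta cluster the on genes were Pcdhb17 and Pcdhb22 in TM6, Pcdhb5, Pcdhb21 and Pcdhb22 in rho0, Pcdhb5, Pcdhb17, Pcdhb18, Pcdhb21 and Pcdhb22 in PKO-1, and Pcdhb5, Pcdhb17, Pcdhb21 and Pcdhb22 in PKO-6. Pcdhb22, the last gene of the cluster, was the strongest in every line. It measured 153, 139 and 138 normalized counts in TM6, 202, 194 and 191 in rho0, 235, 239 and 230 in PKO-1, and 188, 214 and 182 in PKO-6. All libraries of the 3 derived lines lay above those of TM6. The increase was called in PKO-1 (0.71 ± 0.10, adjusted p = 2.52e-05) but stayed under the fold threshold in rho0 (0.45 ± 0.10) and PKO-6 (0.44 ± 0.10).

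Pcdhb21, its upstream neighbour, showed the widest spread between lines among the on beta genes. It measured 26.8, 23.9 and 22.9 normalized counts in TM6, 65.9, 89.8 and 82.6 in rho0, 173, 151 and 166 in PKO-1, and 67.2, 89.1 and 75.6 in PKO-6. The PKO-1 libraries stood above all others and the TM6 libraries below all others, while rho0 and PKO-6 overlapped. Against TM6 the gene rose by 1.68 ± 0.18 in rho0 (adjusted p = 1.67e-06), 2.72 ± 0.17 in PKO-1 (adjusted p = 1.14e-08) and 1.64 ± 0.18 in PKO-6 (adjusted p = 1.88e-06).

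Pcdhb5 lies in the upstream part of the cluster, and in rho0 its TPM of 0.907 ± 0.111 overlapped that of Pcdhb21 (0.947 ± 0.212). Its normalized counts were 23.4, 10.5 and 22.9 in TM6, 123, 98.6 and 86.0 in rho0, 40.5, 35.2 and 36.2 in PKO-1, and 53.2, 60.1 and 52.4 in PKO-6. The 4 lines did not overlap and followed the order TM6, PKO-1, PKO-6, rho0. The rise against TM6 was called in rho0 (2.43 ± 0.25, adjusted p = 8.98e-07) and PKO-6 (1.53 ± 0.25, adjusted p = 0.0001). That in PKO-1 (0.97 ± 0.27, adjusted p = 0.00614) was lost without TM6 replicate 2, any replicate of PKO-1 or PKO-6 replicate 1, with adjusted p up to 0.0226, and neighbouring lines PKO-1 and PKO-6 did not differ by the test (adjusted p = 0.0531).

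Pcdhb17 measured 56.2, 45.9 and 53.9 normalized counts in TM6, 36.8, 33.2 and 27.9 in rho0, 85.7, 112 and 93.1 in PKO-1, and 45.0, 40.4 and 59.1 in PKO-6. Only PKO-1 stood clear of TM6 on the high side (0.90 ± 0.19, adjusted p = 0.000734) and only rho0 on the low side. The fall in rho0 (-0.67 ± 0.20, adjusted p = 0.00974) was lost when any single TM6 or PKO-1 library, rho0 replicate 2 or 3, or PKO-6 replicate 1 was left out, with adjusted p up to 0.0403. Its next neighbour Pcdhb18 was on only in PKO-1, at 79.8, 61.8 and 59.0 normalized counts against 31.1, 42.0 and 25.9 in TM6, and this call (1.01 ± 0.27, adjusted p = 0.00543) was lost without TM6 replicate 1 or 3 or PKO-1 replicate 1 or 2, with adjusted p up to 0.0282.

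A pair of weak beta genes fell to or near the counting floor in 1 line each. Pcdhb14 gave 9.51, 10.5 and 9.97 normalized counts in TM6, 5.81, 4.43 and 2.23 in rho0 and 20.2, 11.7 and 13.4 in PKO-1, but 0 counts in all 3 PKO-6 libraries. Against a floor of 3 counts per library it was at least 3.54-fold lower in PKO-6 than in TM6 and at least 5.36-fold lower than in PKO-1. Both differences were called, but the gene was highest in PKO-1 and could pass the low-count filter through that line. The calls therefore add no support of their own. Pcdhb16 fell instead in rho0, with 14.7, 13.4 and 12.0 normalized counts in TM6, 1.94, 2.22 and 2.23 in rho0, 16.7, 18.1 and 7.24 in PKO-1 and 25.4, 28.0 and 18.4 in PKO-6. Its 6 counts over the rho0 libraries, against 43 in TM6, were 6.33-fold lower (95% exact counting interval 2.68 to 18.2, adjusted p = 0.000311). Pcdhb4 measured 4.32, 13.4 and 7.98 normalized counts in TM6 and 37.8, 32.1 and 17.9 in rho0, which did not overlap, and rose there by 1.78 ± 0.38 (adjusted p = 0.000874), while PKO-1 and PKO-6 lay between 11.7 and 17.9. Pcdhb19 ranged from 8.19 to 33.1 and Pcdhb20 from 5.58 to 40.5 normalized counts over the 12 libraries, neither called against TM6. The remaining beta genes were low or off in every line. Pcdhb1, Pcdhb6, Pcdhb9, Pcdhb12, Pcdhb13 and Pcdhb15, like Pcdhb14, had no count in PKO-6, where a silent gene and one below the depth were not distinguishable. Pcdhb1 had no count in any other line either, and Pcdhb13 had none in TM6 and rho0.

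Summed over the cluster, the beta genes reached 369 ± 11.2 normalized counts in TM6, 511 ± 33.5 in rho0 and 730 ± 13.6 and 486 ± 18.1 in the PKO clones 1 and 6 (SD, n = 3). The 7 downstream genes Pcdhb16 to Pcdhb22 contributed 305 ± 14.7, 353 ± 10.3, 634 ± 14.1 and 403 ± 12.6 of these, and the 15 upstream genes 63.7 ± 3.57, 158 ± 27.7, 96.8 ± 6.54 and 83.4 ± 5.61. The summed levels thus differed between lines, with PKO-1 highest downstream and rho0 highest upstream, without overlap of libraries in either case. These sums were not tested. The upstream sum of rho0 came mostly from Pcdhb5 and Pcdhb4. Its lead therefore describes these genes and not the upstream part as a whole. PKO-1 also had the highest summed level of the 10 neuronal markers, 92.8 to 96.9 CPM against 44.6 to 59.0 in the other lines, and its part in the beta levels was not tested.

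**Figure D2:**
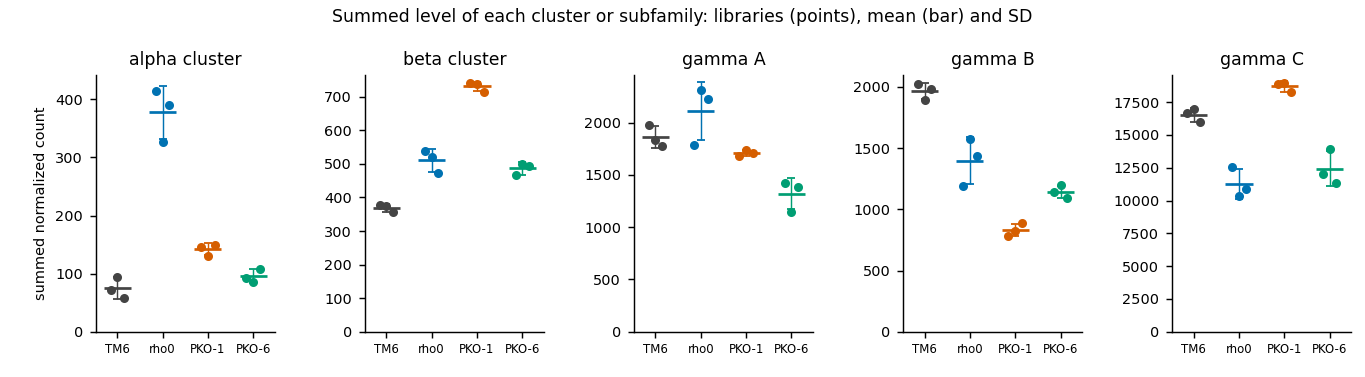
Summed normalized counts of the alpha cluster, the beta cluster and the gamma A, B and C genes in the 4 lines, with libraries as points, the mean as a bar and SD as whiskers (n = 3, axes from 0). The alpha sum is highest in rho0 (377), the beta sum in PKO-1 (730) and the gamma B sum in TM6 (1965).

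The gamma cluster held the most counts of the 3, at 20358 ± 554 normalized counts in TM6, 14756 ± 686 in rho0 and 21233 ± 350 and 14896 ± 1270 in the PKO clones 1 and 6 (SD, n = 3). All 22 genes were on in TM6, 21 in rho0 and PKO-6 and 19 in PKO-1. Pcdhga7 missed the threshold in the 3 derived lines, and Pcdhgb4 and Pcdhgb5 in PKO-1. Most of the signal came from Pcdhgc3, a C-type isoform. It measured 15780, 16420 and 15320 normalized counts in TM6, 11920, 9626 and 10270 in rho0, 18160, 18200 and 17410 in PKO-1, and 11540, 13510 and 10960 in PKO-6. PKO-1 lay above TM6, and TM6 above rho0 and PKO-6, which overlapped.

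Pcdhgc3 fell by 0.58 ± 0.08 in rho0 against TM6 (adjusted p = 3.39e-05), while the differences in PKO-1 (0.18 ± 0.08) and PKO-6 (-0.40 ± 0.08, adjusted p = 0.000782) stayed under the fold threshold. On the length-corrected TPM scale, it averaged 107, 70.0, 115 and 77.5 in TM6, rho0, PKO-1 and PKO-6. The next of all 58 genes on that scale was Pcdhgb2 in TM6 (4.38) and rho0 (4.15), Pcdhga9 in PKO-1 (3.18) and Pcdhgb7 in PKO-6 (2.49), so Pcdhgc3 exceeded it 24.3-, 16.9-, 36.2- and 31.1-fold. Its share of the gamma counts was 77.8 ± 1.43% in TM6, 71.7 ± 4.62% in rho0, 84.4 ± 0.769% in PKO-1 and 80.5 ± 2.12% in PKO-6. In rho0 this share was 76.8% in replicate 1 and 67.8 and 70.6% in replicates 2 and 3, so that replicate 1 lay within the TM6 range of 76.5 to 79.3%.

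The other C-type genes were on in every line at far lower levels. Pcdhgc4 measured 459, 303 and 320 normalized counts in TM6, 387, 385 and 347 in rho0, 329, 339 and 383 in PKO-1, and 193, 199 and 170 in PKO-6. The PKO-6 libraries lay below all others, a fall of 0.95 ± 0.15 against TM6 (adjusted p = 4.79e-05), and the rest overlapped. Pcdhgc5 ranged from 219 to 450 normalized counts over the 12 libraries and was called against TM6 in no line, with adjusted p of 0.111, 0.0588 and 0.022 in rho0, PKO-1 and PKO-6.

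Among the 19 gamma A and gamma B genes, the leading isoform was shared by TM6 and rho0 and was another one in PKO-1. Pcdhgb2 held the largest share of their counts in TM6 (16.8 ± 1.17%) and rho0 (17.8 ± 2.16%), Pcdhga9 in PKO-1 (19.7 ± 1.04%) and Pcdhgb7 in PKO-6 (15.2 ± 2.47%). The lead in PKO-6 was within the spread, since Pcdhgb2 held up to 16.1% in its libraries. Pcdhgb6 came next in TM6 (15.4 ± 0.673%) and Pcdhga10 in rho0 (15.9 ± 2.24%) and PKO-1 (15.3 ± 1.99%).

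**Figure D3:**
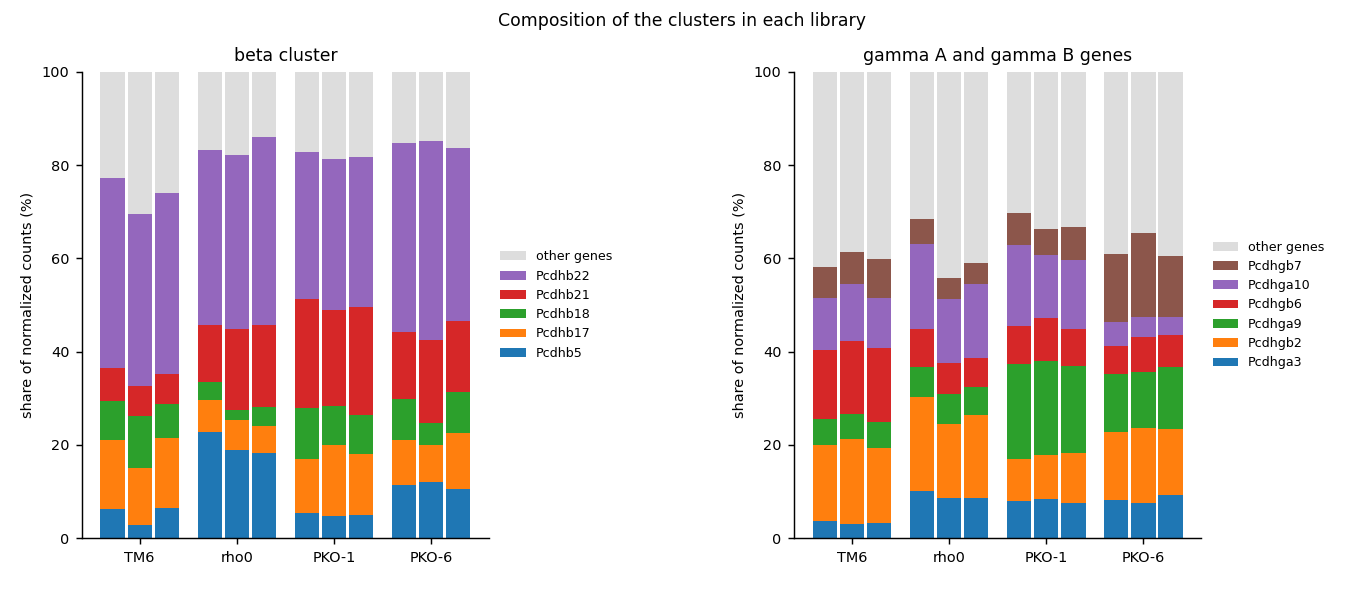
Stacked bars of the percentage of normalized counts taken by the leading genes in each of the 12 libraries, for the beta cluster on the left and for the 19 gamma A and B genes on the right, with all other genes in grey. Pcdhb5 is widest in rho0 and Pcdhb21 in PKO-1, whereas Pcdhgb6 is widest in TM6, Pcdhga9 in PKO-1 and Pcdhgb7 in PKO-6.

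Pcdhgb2 measured 652, 677 and 602 normalized counts in TM6, 598, 613 and 642 in rho0, 224, 241 and 279 in PKO-1, and 374, 377 and 353 in PKO-6. TM6 and rho0 overlapped, PKO-6 lay below both and PKO-1 below PKO-6. It fell by 1.37 ± 0.09 in PKO-1 (adjusted p = 1.73e-08) and by 0.81 ± 0.09 in PKO-6 (adjusted p = 1.94e-06) and was not called in rho0 (-0.06 ± 0.09, adjusted p = 0.544). Pcdhgb6 was lower than in TM6 in all 3 derived lines, with 585, 583 and 599 normalized counts in TM6 against 247, 265 and 230 in rho0, 201, 233 and 206 in PKO-1 and 150, 173 and 169 in PKO-6. No derived library reached the TM6 range, and the fold changes were -1.25 ± 0.09, -1.46 ± 0.09 and -1.85 ± 0.10 (adjusted p = 3.74e-08, 1.16e-08 and 7.61e-10).

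Pcdhga10 separated PKO-6 from the other lines. It measured 446, 458 and 400 normalized counts in TM6, 542, 533 and 574 in rho0, 430, 346 and 388 in PKO-1, and 135, 104 and 97.0 in PKO-6. The PKO-6 libraries lay well below all others, a fall of 1.95 ± 0.13 against TM6 (adjusted p = 8.04e-09), and the PKO-1 and TM6 libraries overlapped (-0.17 ± 0.12, adjusted p = 0.229). Its downstream neighbour Pcdhgb7 went the other way, with 265, 257 and 318 normalized counts in TM6, 158, 176 and 163 in rho0, 166, 145 and 182 in PKO-1, and 372, 421 and 326 in PKO-6. It fell by 0.76 ± 0.13 in rho0 (adjusted p = 0.000123) and by 0.77 ± 0.13 in PKO-1 (adjusted p = 0.000129), while the PKO-6 libraries were the highest of all but their difference from TM6 stayed under the fold threshold (0.41 ± 0.12, adjusted p = 0.00784).

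Pcdhga9 was highest in PKO-1. Its normalized counts were 227, 200 and 213 in TM6, 191, 246 and 224 in rho0, 501, 517 and 479 in PKO-1, and 319, 283 and 330 in PKO-6. TM6 and rho0 overlapped, PKO-6 lay above them and PKO-1 above PKO-6. The rise in PKO-1 was 1.23 ± 0.10 (adjusted p = 2.23e-07). That in PKO-6 (0.54 ± 0.11, adjusted p = 0.000401) dropped to 0.49 or 0.50 and below the fold threshold without TM6 replicate 2 or PKO-6 replicate 1 or 3.

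At the upstream end of the cluster, Pcdhga1 and Pcdhga3 were higher than in TM6 in every derived line. Pcdhga3 measured 147, 113 and 123 normalized counts in TM6, 301, 338 and 318 in rho0, 196, 215 and 196 in PKO-1, and 208, 176 and 228 in PKO-6. Its fold changes against TM6 were 1.32 ± 0.12, 0.66 ± 0.13 and 0.68 ± 0.13, and those of Pcdhga1 0.99 ± 0.17, 0.98 ± 0.17 and 1.04 ± 0.17, with the libraries of both genes not overlapping TM6. Pcdhga2, which lies between them, moved apart, with 117, 83.1 and 102 normalized counts in TM6, 165, 156 and 154 in rho0, 40.5, 50.1 and 63.1 in PKO-1, and 134, 108 and 118 in PKO-6. It fell by 0.97 ± 0.18 in PKO-1 (adjusted p = 0.000314) and was not called in PKO-6 (0.26 ± 0.16, adjusted p = 0.176). Its rise in rho0 (0.65 ± 0.16, adjusted p = 0.00256) was lost without TM6 replicate 2 (0.53, adjusted p = 0.0151).

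In the middle of the cluster, Pcdhga5, Pcdhga6, Pcdhga7, Pcdhgb4 and Pcdhgb5 were lower in both PKO clones than in TM6. Pcdhga7 measured 133, 140 and 127 normalized counts in TM6, 26.2, 80.9 and 75.9 in rho0, 2.38, 15.98 and 23.8 in PKO-1, and 38.5, 23.8 and 35.9 in PKO-6. Every derived library lay below TM6, and the falls of 3.20 ± 0.47 in PKO-1 (adjusted p = 3.87e-05) and 2.01 ± 0.41 in PKO-6 (adjusted p = 0.000542) were called. Pcdhgb4 fell by 2.42 ± 0.32 and 1.38 ± 0.29, Pcdhgb5 by 2.45 ± 0.38 and 1.62 ± 0.35, and Pcdhga5 by 2.12 ± 0.24 and 1.88 ± 0.23 in PKO-1 and PKO-6. Toward the downstream end, Pcdhga11 (-1.02 ± 0.29) and Pcdhgb8 (-0.88 ± 0.24) in PKO-6 and Pcdhga12 in PKO-1 (-0.90 ± 0.24) were called lower, but the first was lost without any TM6 or PKO-6 replicate, the next without TM6 replicate 1 or 3 or PKO-6 replicate 1 or 3, and the last without TM6 replicate 1 or PKO-1 replicate 2. Pcdhga12 fell in PKO-6 by 1.51 ± 0.24 (adjusted p = 7.62e-05). In rho0, Pcdhga7 (-1.14 ± 0.39, adjusted p = 0.017) and Pcdhgb5 (-0.42 ± 0.32, adjusted p = 0.259) were not called. Pcdhga4, Pcdhga8 and Pcdhgb1 were on in every line and were called against TM6 in none, with levels from 36.9 to 126, 51.2 to 125 and 37.3 to 141 normalized counts over the 12 libraries. Calls in rho0 for Pcdhga5 (-0.87 ± 0.22, adjusted p = 0.00247) and Pcdhgb4 (-0.94 ± 0.28, adjusted p = 0.0087) did not hold throughout, since the first was lost without TM6 replicate 1 (adjusted p = 0.0112) and the other without TM6 replicate 1 or 3, rho0 replicate 1, PKO-1 replicate 1 or 3 or PKO-6 replicate 1 (adjusted p up to 0.0331).

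**Figure D4:**
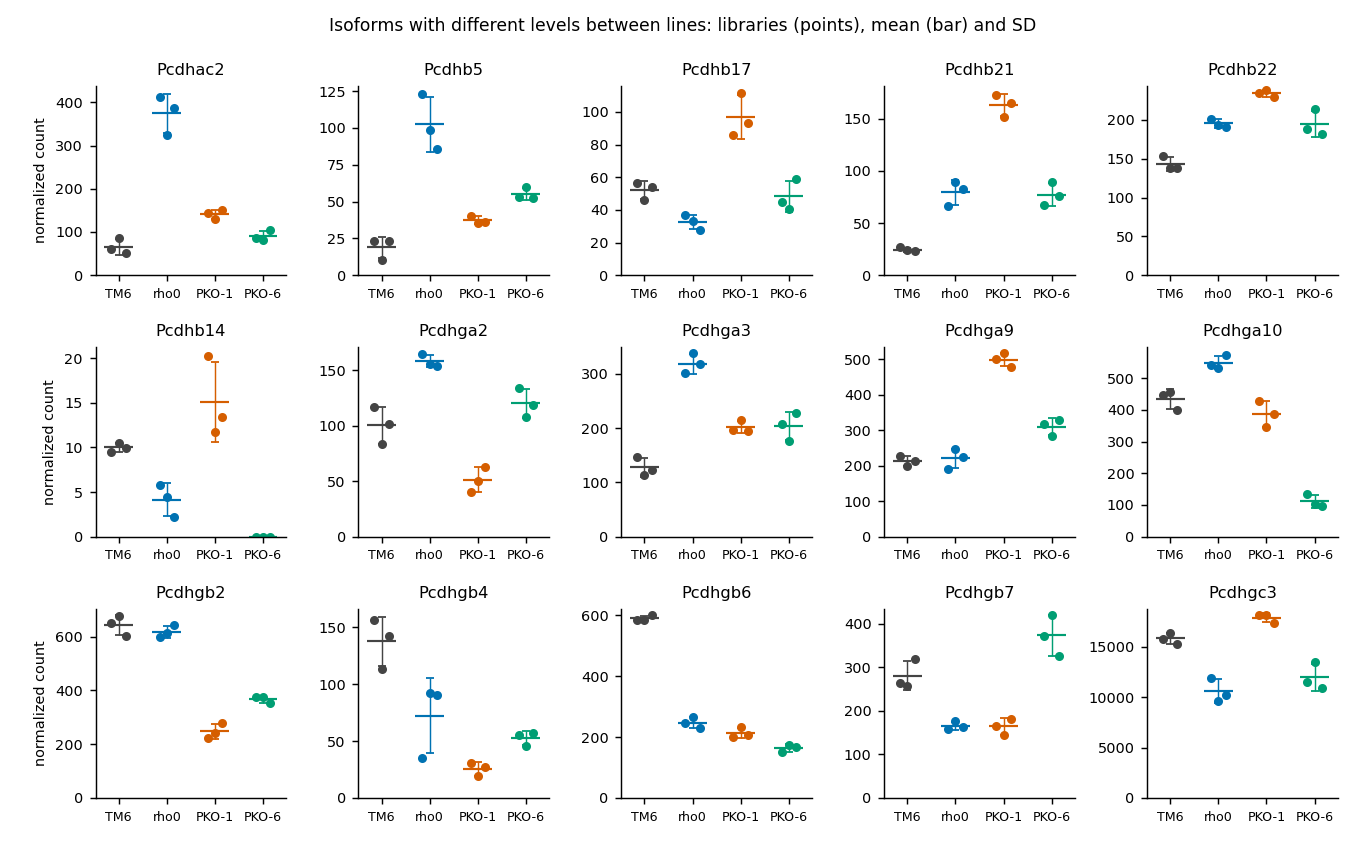
Normalized counts of 15 isoforms in the 4 lines, with libraries as points, the mean as a bar and SD as whiskers (n = 3, each axis from 0 and scaled to its gene). Pcdhac2 and Pcdhb5 are highest in rho0, Pcdhb21 and Pcdhga9 in PKO-1 and Pcdhgb7 in PKO-6, Pcdhga10 is lowest in PKO-6, and Pcdhb14 is at 0 in PKO-6.

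Several weak gamma isoforms differed between the rho0 cultures. Pcdhgb1 gave 38.7 normalized counts in rho0 replicate 1 against 141 and 109 in replicates 2 and 3, Pcdhgb4 34.9 against 92.0 and 90.5, and Pcdhgb8 69.7 against 173 and 118. All 3 were lowest in replicate 1, as were the gamma A and B genes together, at 2978 normalized counts against 3886 and 3655. Over the same 22 gamma genes, the variance between replicates was a median of 6.84 times the counting variance in rho0, against 2.51 in TM6, 2.09 in PKO-1 and 1.88 in PKO-6. Summed gamma B counts were highest in TM6 (1965 ± 66.0) and lowest in PKO-1 (831 ± 52.9), with 1397 ± 194 in rho0 and 1142 ± 51.8 in PKO-6. Gamma A sums stood at 1861 ± 102, 2109 ± 280, 1709 ± 25.9 and 1318 ± 147 in TM6, rho0, PKO-1 and PKO-6, so that only PKO-6 was below every library of the other lines.

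The 7 genes on in some lines only lay close to the threshold of 28.2 normalized counts in several cases. Pcdhb17 missed it in rho0 with a level of 27.9 in replicate 3, and Pcdhb18 in TM6 with 25.9 in replicate 3. Pcdhga7 missed it in rho0 with 26.2 in replicate 1 and in PKO-6 with 23.8 in replicate 2. Just inside was Pcdhgb5 at 29.0 and 29.5 in PKO-6. Leaving out a library moved the number of on genes to 25 to 26 in TM6, 25 to 27 in rho0, 25 to 26 in PKO-1 and 26 to 28 in PKO-6. All 25 genes on in rho0 were also on in PKO-6, where Pcdhb17 was on besides, and 24 genes were on in both PKO clones.

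The filter on low counts left 33 of the 58 genes for the tests, namely Pcdhac2, 10 beta genes and all 22 gamma genes. A gene could pass through a single line in which it was high, and the 25 others had no library above 12.0 normalized counts. In rho0 against TM6, 14 were called, 7 higher and 7 lower, which is 42.4% beside 42.1% of all genes tested (20.7% higher, 21.4% lower). In PKO-1 against TM6, 19 were called (9 higher, 10 lower), or 57.6% beside 34.3% (16.4% higher, 17.9% lower). In PKO-6 against TM6, 18 were called (5 higher, 13 lower), or 54.5% beside 41.3% (21.9% higher, 19.4% lower). The rho0 share was thus at the background, and those of the clones were above it. These 3 comparisons share the TM6 libraries. With both PKO clones entered as 1 group, 14 genes were called against TM6, with 25.7% of all genes called in that fit, and Pcdhga10 was not among them (-0.80 ± 0.45, adjusted p = 0.16).

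**Figure D5:**
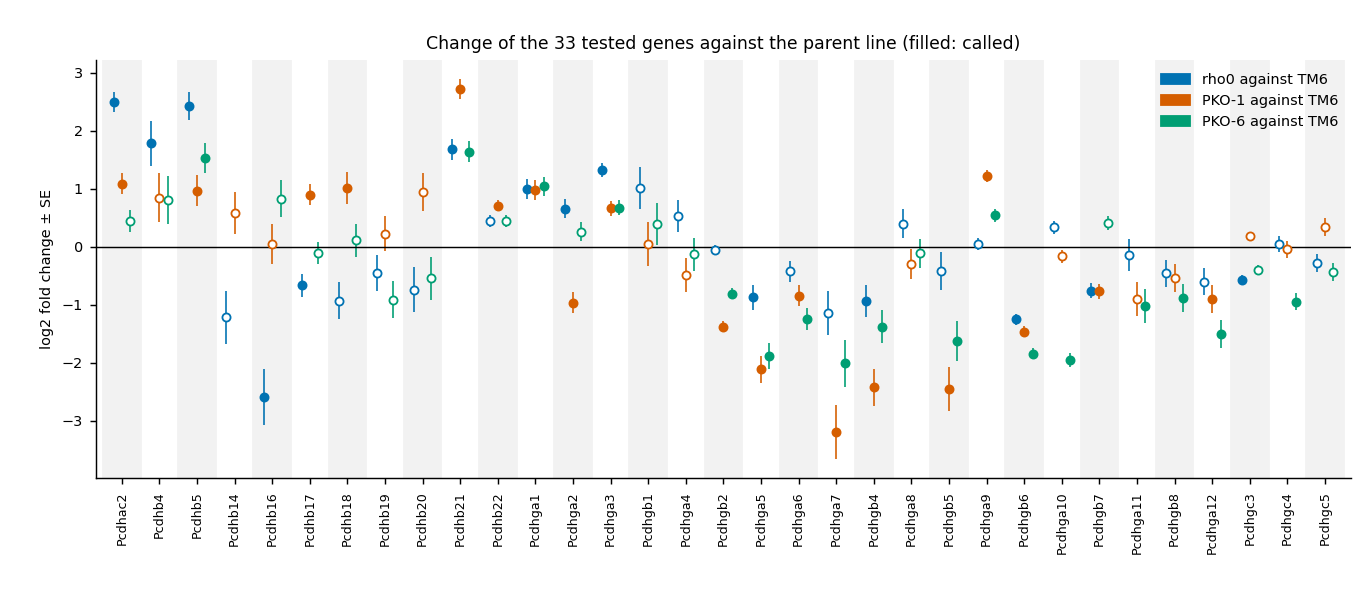
Log2 fold change ± SE against TM6 of the 33 tested genes in chromosome order, for rho0 (blue), PKO-1 (orange) and PKO-6 (green), with filled points for called genes. Pcdhb5, Pcdhb21, Pcdhga1 and Pcdhga3 lie above 0 in all 3 lines and Pcdhga5, Pcdhgb4 and Pcdhgb6 below 0, and Pcdhb14 in PKO-6, at 0 counts, is not drawn.

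Other genes of chromosome 18 moved with these comparisons. The 349 tested genes of that chromosome that are no clustered protocadherins had median log2 fold changes of 0.45 in rho0, 0.43 in PKO-1 and 0.37 in PKO-6 against TM6, where all genes had medians of 0.02, 0.00 and 0.01. The 33 clustered protocadherins had medians of -0.28, 0.05 and -0.40. Measured relative to the chromosome, in an alternative chosen after seeing the data, 20 genes were called in rho0 (5 higher, 15 lower), 16 in PKO-1 (3 higher, 13 lower) and 19 in PKO-6 (3 higher, 16 lower). Taking off a positive median lowers every fold change, so the shift toward lower calls follows from the scale itself. The share of all genes called in that fit is not given here, so these counts have no background. The higher calls of Pcdhga1 and Pcdhga3 in PKO-1, of Pcdhga1 and Pcdhga2 in rho0, of Pcdhga3 and Pcdhga9 in PKO-6 and of Pcdhb5, Pcdhb17, Pcdhb18 and Pcdhb22 in PKO-1 were lost on this scale, and those of Pcdhac2 and Pcdhb21 in rho0 and PKO-1 remained. How far a change of the whole chromosome takes part in the protocadherin levels was not tested.

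The 9 genes flanking the clusters gave 2 higher calls in rho0, 6 in PKO-1 and 2 in PKO-6, and no lower one, or 22.2, 66.7 and 22.2% called beside the 42.1, 34.3 and 41.3% of all genes. Rell2 and Fchsd1, which follow the gamma cluster beyond Diaph1 and Hdac3, were called higher in all 3 lines. Fchsd1 measured 566, 479 and 514 normalized counts in TM6, 1012, 1055 and 1100 in rho0, 833, 935 and 930 in PKO-1, and 1054, 992 and 1065 in PKO-6, with fold changes of 1.02 ± 0.08, 0.79 ± 0.08 and 1.00 ± 0.08. Taf7, a general transcription factor subunit gene between the beta and gamma clusters, was called higher in PKO-1 (0.79 ± 0.12). Relative to the chromosome, the call of Rell2 in rho0 and all 6 calls in PKO-1 (Hars2, Zmat2, Taf7, Hdac3, Rell2 and Fchsd1) were lost. The Hdac3 call (0.53 ± 0.06) also was lost, with values down to 0.49, without TM6 replicate 1, any rho0 replicate or PKO-6 replicate 1 or 2.

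The derived lines were also compared with one another, which leaves TM6 out. Between the PKO clones, 14 genes were called, 11 higher in PKO-1 and 3 higher in PKO-6, or 42.4% beside 29.1% of all genes (11.5 and 17.6%). The higher ones in PKO-1 were Pcdhac2, 5 beta genes (Pcdhb14, Pcdhb17, Pcdhb19, Pcdhb20, Pcdhb21) and the gamma genes Pcdhga9, Pcdhga10, Pcdhgc3, Pcdhgc4 and Pcdhgc5, whereas Pcdhga2, Pcdhgb2 and Pcdhgb7 were higher in PKO-6. The largest differences after Pcdhb14 were those of Pcdhga10 (1.78 ± 0.13, adjusted p = 4.17e-08), Pcdhga2 (-1.22 ± 0.18, adjusted p = 4.14e-05) and Pcdhgb7 (-1.18 ± 0.13, adjusted p = 2.55e-06) among those called in every alternative. Libraries of the 2 clones did not overlap for these genes. The calls of Pcdhac2 (0.64 ± 0.18) without PKO-1 replicate 1 or 3 or PKO-6 replicate 1 or 2, of Pcdhb20 (1.48 ± 0.35) without PKO-1 replicate 2 and of Pcdhgb2 (-0.57 ± 0.09) without PKO-1 replicate 1 were lost. That of Pcdhb19 (1.14 ± 0.32) was lost without TM6 replicate 3, rho0 replicate 3, PKO-1 replicate 2 or 3 or any PKO-6 replicate, with adjusted p up to 0.0435. Both clones received the same treatment.

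Between PKO-1 and rho0, 20 genes were called (9 higher in PKO-1, 11 lower), or 60.6% beside 32.7% (15.1% higher, 17.6% lower), and between PKO-6 and rho0, 13 were (2 higher, 11 lower), or 39.4% beside 21.5% (13.3% higher, 8.16% lower). Pcdhac2 was lower than in rho0 in PKO-1 (-1.41 ± 0.16) and PKO-6 (-2.05 ± 0.17), as was Pcdhgb2 (-1.31 ± 0.09 and -0.75 ± 0.09). The genes higher in PKO-1 than in rho0 included Pcdhb17, Pcdhb18, Pcdhb20 and Pcdhb21 of the downstream beta genes, at 1.56 ± 0.20, 1.94 ± 0.30, 1.68 ± 0.36 and 1.04 ± 0.16. In PKO-6 against rho0 the higher genes were Pcdhb16 and Pcdhgb7 (1.17 ± 0.13). Among the lower ones was Pcdhb14, with 0 counts in PKO-6 and 12 over the rho0 libraries, close to the floor. Calls lost on leaving out at least 1 of the rho0 replicates were those of Pcdhb14, Pcdhga4, Pcdhga7, Pcdhga10 and Pcdhgc5 in PKO-1, and of Pcdhb5, Pcdhga5, Pcdhga6 and Pcdhga12 in PKO-6, with adjusted p up to 0.0421 for Pcdhga12.

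Of 24 genes that act in promoter choice, chromatin looping and DNA methylation, 1 was called higher and 4 lower in rho0, 1 higher and 4 lower in PKO-1, and none higher and 5 lower in PKO-6 against TM6. That is 20.8% of the list in each line, below the 42.1, 34.3 and 41.3% of all genes. Smc1a, which encodes a core subunit of cohesin, measured 14920, 16130 and 16120 normalized counts in TM6, 8820, 8348 and 8610 in rho0, 9951, 9698 and 9540 in PKO-1, and 6579, 6873 and 7213 in PKO-6. No derived library reached the TM6 range, and the fold changes were -0.87 ± 0.05, -0.69 ± 0.05 and -1.19 ± 0.05 (adjusted p = 4.59e-09, 6.26e-08 and 1.65e-10). Rad21 and Smc3, also core cohesin subunit genes, were named here after their values were seen. Rad21 averaged 27570, 16370, 27810 and 21490 normalized counts in TM6, rho0, PKO-1 and PKO-6, and Smc3 13690, 10830, 13870 and 10450. In PKO-1 neither mean was below that of TM6. Dnmt3b, a de novo DNA methyltransferase that acts on the variable promoters, measured 115, 125 and 164 in TM6, 171, 253 and 212 in rho0, 71.4, 66.0 and 71.4 in PKO-1, and 193, 134 and 186 in PKO-6. It was lowest in PKO-1 (-0.95 ± 0.20 against TM6, adjusted p = 0.000789, and -1.30 ± 0.19 against PKO-6, adjusted p = 5.53e-05), and its call in rho0 (0.65 ± 0.18) was lost without TM6 replicate 1 or 2 or rho0 replicate 2 or 3 (0.49 to 0.81 over all libraries left out in turn). Tet1, which oxidizes methylated cytosine, fell in PKO-6 (-0.89 ± 0.19, adjusted p = 0.000828), and its call in PKO-1 (-0.63 ± 0.19, adjusted p = 0.00941) was lost without any single TM6 replicate, PKO-1 replicate 1 or 2, rho0 replicate 3 or PKO-6 replicate 1 or 3, with fold changes between -0.86 and -0.51. Ctcf, named here after its values were seen, was called against TM6 in no line, with fold changes of -0.18 ± 0.06, 0.23 ± 0.06 and -0.31 ± 0.06 in rho0, PKO-1 and PKO-6. It was higher in PKO-1 than in PKO-6 (0.54 ± 0.06, adjusted p = 2.02e-06), a call lost without PKO-6 replicate 1.

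Among 14 genes for binding and processing partners, 2 were called higher and 5 lower in rho0, none higher and 3 lower in PKO-1, and 2 higher and 3 lower in PKO-6. These are 50.0, 21.4 and 35.7% of the list beside 42.1, 34.3 and 41.3% of all genes. Ptk2b, whose product is the kinase PYK2 bound and inhibited by the shared alpha and gamma tails, had the widest differences of the list. It measured 930, 926 and 896 normalized counts in TM6, 3.87, 3.32 and 2.23 in rho0, 16.7, 12.8 and 17.6 in PKO-1, and 45.0, 47.7 and 56.2 in PKO-6. All derived libraries were far below TM6, with log2 fold changes of -5.86 ± 0.14 in PKO-1 and -4.21 ± 0.11 in PKO-6, and with 9 counts in rho0 against 2943 in TM6, a 289-fold difference (95% exact counting interval 152 to 632). Ret, a receptor tyrosine kinase that associates with clustered protocadherins in neurons, was on in TM6 at 38.9, 35.4 and 38.9 normalized counts and was low in every derived line, between 0 and 16.6. Its 7 counts in rho0 and 6 in PKO-1 against 121 in TM6 were 15.3-fold (7.18 to 38.8) and 17.3-fold (7.71 to 48.0) lower, and its fall of 1.39 ± 0.34 in PKO-6 was lost without PKO-6 replicate 1 or 3. Psen2, a gamma-secretase subunit, was higher in rho0 (1.23 ± 0.10) and PKO-6 (0.94 ± 0.10), with 656, 541 and 547 and 503, 492 and 428 normalized counts against 258, 251 and 232 in TM6, and was not called in PKO-1.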

How the data were processed

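Total RNA of 12 cultures was depleted of ribosomal RNA and sequenced with a stranded kit in technical duplicates, which the authors merged. The authors estimated isoform and gene levels with RSEM 1.2.25 and Bowtie2 on the RefSeq annotation of mm10/GRCm38 and deposited expected counts and TPM per gene and library. RNA was isolated with either of 2 reagents, and which was used for each sample is not given in the sources used here.

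The deposited expected counts were rounded to whole numbers. Genes were filtered with filterByExpr at a minimum count of 10, libraries were scaled by TMM, and the 4 lines were fitted together with edgeR 4.0.16 in R 4.3.3 (quasi-likelihood test, Benjamini-Hochberg adjustment over 14026 genes). Calls needed an adjusted p below 0.01 and a log2 fold change beyond 0.5. Deposited TPM served only for levels between genes. Replicates are separate cultures of 1 line, so p-values cover the spread between cultures. Totals of 47164860 to 67991378 set the depth, with a floor of 3 counts per library, and counting intervals cover counting error only. The members and lists were chosen with earlier results of these data known. Members on in at least 1 line were named, with library values for the leading genes of each cluster, and up to 3 genes were named from each list, those with the largest absolute fold change among genes called. Alternatives were DESeq2 1.42.0, other scaling, no filter, other thresholds, a replicate block, a fit of the compared lines only, each library left out in turn, and, chosen after seeing the data, removal of the chromosome 18 median. Fits were tested on simulated data with a common spread for all genes and changes planted only in genes with higher counts. That setting does not cover the weakest isoforms or the split of shared-exon reads. Sequences of the clusters are not reported here.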

Additional observations from a re-analysis of the deposited data

Results flagged for a closer look

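For 14 clustered protocadherins the change against TM6 differed between the knockout clones by a direct test of PKO-1 against PKO-6 (edgeR's quasi-likelihood test, adjusted p below 0.01 and log2 fold change beyond 0.5). That is 42.4% of the members tested, beside 29.1% of all genes tested in the same comparison. Higher in PKO-1 were Pcdhac2 by 0.64, Pcdhb17 by 1.01, Pcdhb19 by 1.14, Pcdhb20 by 1.48 and Pcdhb21 by 1.08 on the log2 scale. So were Pcdhga9 by 0.68, Pcdhga10 by 1.78, Pcdhgc3 by 0.58, Pcdhgc4 by 0.90 and Pcdhgc5 by 0.78, and Pcdhb14, with 0 counts in PKO-6, was at least 5.36-fold higher. Pcdhga2 (-1.22), Pcdhgb2 (-0.57) and Pcdhgb7 (-1.18) were the ones higher in PKO-6. The calls of Pcdhac2, Pcdhb19, Pcdhb20 and Pcdhgb2 were lost in 6, 10, 1 and 1 of 19 alternatives.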

How the results depend on the processing

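Up to 19 alternatives used the same call thresholds, and a few calls had fewer because the gene was not tested in each. Of 98 calls of a gene in a comparison, 69 were kept under every such alternative that tested the gene. Of 1859 values 122 lost the call and 0 changed direction. With a log2 fold change beyond 1, 7 genes were called in rho0, 10 in PKO-1 and 13 in PKO-6 against TM6. At that threshold 8 were called between the clones, 16 in PKO-1 against rho0 and 6 in PKO-6 against rho0. The share of all genes at that threshold is not given here. At a threshold of 1 TPM, 11 genes were on in TM6, 12 in rho0, 11 in PKO-1 and 8 in PKO-6, and at 1 CPM 16 were on in PKO-6. Leaving out each library in turn gave 11 to 15 calls in rho0, 16 to 21 in PKO-1 and 15 to 18 in PKO-6 against TM6, 12 to 16 between the clones, and 16 to 23 in PKO-1 and 10 to 19 in PKO-6 against rho0. Replicate numbers did not pair the samples, since deviations of same-numbered libraries correlated between -0.53 and 0.41, and with a replicate block 12 genes were called in rho0, 19 in PKO-1 and 18 in PKO-6 against TM6, 13 between the clones, and 20 in PKO-1 and 12 in PKO-6 against rho0. With the chromosome 18 median removed, chosen after seeing the data, PKO-6 against rho0 gave 14 calls (4 higher, 10 lower). For the fits with a library left out, the replicate block and this removal, the share of all genes called is not given here. These counts therefore have no background. The split of reads between alpha or gamma isoforms could not be redone from gene counts, and each derived line is 1 clone.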

Other observations

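Protocadherins outside the clusters also differed between the lines. Of 12 such genes 7 were tested, with 4 called higher and 2 lower in rho0, 4 higher and 2 lower in PKO-1, and 2 higher and 4 lower in PKO-6 against TM6, or 85.7% of those tested in each line beside 42.1, 34.3 and 41.3% of all genes. Pcdh7 measured 98.6, 122 and 99.7 normalized counts in TM6 and 211, 223 and 211 in rho0, but 0 in all 3 PKO-1 libraries and 0.819, 0 and 0 in PKO-6, so that PKO-1 was at least 32.5-fold below TM6. Pcdh17 measured 12.97, 18.2 and 10.97 in TM6, 90.1, 113 and 103 in rho0, 120, 123 and 132 in PKO-1, and 9.01, 4.15 and 6.79 in PKO-6. Its rho0 and PKO-1 libraries were all above TM6, and its PKO-6 libraries were all below, but the lower call in PKO-6 (-1.03 ± 0.31, edgeR adjusted p = 0.00868) was lost in 12 of 19 alternatives, among them those without TM6 replicate 1 or 2, rho0 replicate 3, any PKO-1 replicate or PKO-6 replicate 2 or 3. Pcdh20 was highest in PKO-1, at 52.4, 62.8 and 56.9 normalized counts against 0, 5.73 and 2.99 in TM6.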
